A study of Mus musculus with 31 samples.

Results

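The monoamine genes are the genes that make, store, take up and break down dopamine, noradrenaline, adrenaline and serotonin. The set described here holds 10 genes, chosen by symbol: Th, Ddc, Dbh, Tph2, Slc18a2, Slc6a2, Slc6a3, Slc6a4, Maoa and Maob. Every probe set that the platform annotation pairs with 1 of these symbols was taken, which gave 17 of the 45037 probe sets that are not Affymetrix controls. The first 8 genes are used mainly by cells that release a monoamine and are called cell body genes below, because their transcripts lie in the cell bodies of those neurons. Maoa and Maob are the breakdown enzymes, which many cell types make.

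The values come from 31 Affymetrix mouse arrays, which the labels place in 10 groups of sorted CD4+ T cells from spleen and lymph nodes. Mice carrying a bicistronic Foxp3/EGFP reporter gave the cells labelled conventional T (Foxp3-EGFP-, 3 arrays), natural Treg (regulatory T cells, Foxp3+EGFP+, 4) and activated natural Treg (natural Treg given anti-CD3, anti-CD28 and TGF-beta, 3). Their conventional cells also gave activated T (anti-CD3 and anti-CD28 without TGF-beta, 4), induced Treg (the same antibodies with TGF-beta for 3 days, then sorted for Foxp3+EGFP+ cells, 5) and failed induced Treg (the EGFP- cells of those cultures, 3). Mice with the mutant allele Foxp3deltaEGFP gave induced Foxp3-delta cells from mutant males (3 arrays) and natural Foxp3-delta cells from heterozygous females (2). Induced Treg and induced Foxp3-delta cells were also kept for 1 week in IL-2 at 100 units per ml (2 arrays each). All cells except those labelled natural Treg, conventional T and natural Foxp3-delta had received both antibodies. The labels number the samples and do not state whether each came from its own culture or animal, so p-values cover the spread among numbered samples, and that spread may be technical.

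The labelled cell type was not borne out by its markers. Of 9 CD4 T cell markers 8 were measured, and 1 of them, Cd3e at 36.8 ± 12.2 intensity units (SD, n = 31), lay above background on all arrays, whereas Foxp3 read 12.7 ± 2.35 and was above background on none. The 5 neuron, 5 astrocyte, 4 oligodendrocyte and 4 endothelial markers measured were above background on all 31 arrays, with median percentiles of 99.3, 99.2, 99.96 and 77.0 within the array, against 24.6 for the T cell markers. Of genes listed for monoamine cells outside the brain, 3 of 3 adrenal chromaffin genes (Pnmt, Chga and Chgb), 3 of 6 mast cell and platelet genes and 1 of 2 peripheral neuron genes measured (Prph) were above background on all arrays. Chga and Chgb, at percentiles 97.7 and 98.6, lay within the range of the neuron markers (96.4 to 99.9), and Pnmt lay at 58.4. Whether such cells were present was not tested. Because the markers did not bear out the labelled cell type, groups are named below as "arrays labelled" with their label. Shorter forms below, such as natural Treg, also mean arrays with that label. Deposited array medians ran from 22.2 to 55.4, so the arrays differed in overall level. The labels give no batch. Clustering on array medians, upper percentiles and hybridisation controls divided the arrays into 3 array sets that partly follow the labels. Precision is limited by the few arrays in each group.

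Dopamine is made from tyrosine in 2 steps: tyrosine hydroxylase (Th) forms L-DOPA and aromatic L-amino acid decarboxylase (Ddc) removes its carboxyl group. Dopamine beta-hydroxylase (Dbh) turns dopamine into noradrenaline, and tryptophan hydroxylase 2 (Tph2) begins serotonin synthesis in neurons, which Ddc completes. The vesicular transporter Slc18a2 loads all of these amines into vesicles, and Slc6a2, Slc6a3 and Slc6a4 return noradrenaline, dopamine and serotonin to the neuron. In the brain many of the cell bodies lie in small nuclei of the midbrain and hindbrain, and their axons reach most other regions. Monoamine oxidases A and B sit on the outer mitochondrial membrane and oxidise the amines in neurons, glia and many tissues outside the brain.

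The promoters of Th, Ddc and Maoa are shown because these genes stand for the contrast the values below turn on: the enzyme that commits a cell to catecholamine synthesis, the decarboxylase that also occurs outside monoamine neurons, and the widely made breakdown enzyme. Each line gives the 250 bases before a RefSeq start on GRCm38.p6, 5′ to 3′ on the gene's strand. Capitals mark matches, on either strand, to the cAMP response element TGACGTCA, the GC box GGGCGG or the TATA motif TATAAA.
Th, chr7:142899996-142900245, minus strand: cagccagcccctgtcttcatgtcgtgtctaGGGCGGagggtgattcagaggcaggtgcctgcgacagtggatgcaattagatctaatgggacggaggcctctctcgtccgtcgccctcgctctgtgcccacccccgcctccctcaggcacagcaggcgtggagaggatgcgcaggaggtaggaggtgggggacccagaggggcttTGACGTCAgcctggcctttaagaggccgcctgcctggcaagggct
Ddc, upstream start, chr11:11898145-11898394, minus strand: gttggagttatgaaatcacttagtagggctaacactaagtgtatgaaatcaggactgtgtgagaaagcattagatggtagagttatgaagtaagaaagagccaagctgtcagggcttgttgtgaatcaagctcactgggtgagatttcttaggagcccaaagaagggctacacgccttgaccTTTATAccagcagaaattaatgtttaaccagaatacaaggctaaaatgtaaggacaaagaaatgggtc
Ddc, downstream start, chr11:11890409-11890658, minus strand: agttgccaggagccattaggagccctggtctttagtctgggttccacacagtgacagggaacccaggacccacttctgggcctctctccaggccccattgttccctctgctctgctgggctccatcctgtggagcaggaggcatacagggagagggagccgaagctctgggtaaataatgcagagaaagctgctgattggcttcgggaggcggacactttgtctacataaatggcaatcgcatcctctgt
Maoa, chrX:16619448-16619697, plus strand: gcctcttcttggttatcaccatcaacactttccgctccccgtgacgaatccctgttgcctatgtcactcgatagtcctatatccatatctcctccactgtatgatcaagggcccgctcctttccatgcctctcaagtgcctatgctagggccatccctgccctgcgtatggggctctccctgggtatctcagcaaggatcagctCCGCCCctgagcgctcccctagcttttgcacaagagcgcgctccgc
RefSeq promoters were matched for 8 of the 10 genes. The Th window held 13 CG dinucleotides, a GC box and a cAMP response element that ends 37 bases before the start. The Maoa window held 11 CG dinucleotides and a GC box, which reads CCGCCC on the strand printed. The upstream Ddc window held 1 CG dinucleotide and a TATA motif on the opposite strand, and the downstream window held 4 and none of the 3 motifs. Over all 32851 promoters of the same length in the table, the median was 6 CG dinucleotides, and 1.55% held the cAMP response element, 32.7% the GC box and 12.4% the TATA motif. These matches describe the letters and not sites in use.

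Levels are given first as deposited intensities, in array units on a linear scale, and as the percentile of the probe set among the 45037 on the same array, which does not depend on how arrays were scaled. Probe sets differ in how well they bind their target, so a percentile places a reading within the array and is not a ratio of transcript amounts. Background on each array was the 95th percentile of 80 probe sets for olfactory and vomeronasal receptors, which ran from 12.4 to 25.03 intensity units with a median of 20.1. Of the 10 genes, 5 were above it on all 31 arrays by their brightest probe set: Th, Ddc, Dbh, Maoa and Maob. By construction 5% of the receptor probe sets exceed that level on an array, and 1.25% of the 80 did so on all arrays. The level lay under the array's median on every array, so most probe sets pass it, and the share of all that did so was not counted.

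Among the enzymes of synthesis, Ddc read highest. Its probe set 1426215_at had a lowest value of 132, a median of 323 and a highest of 518 over the 31 arrays, at percentile 80.7 ± 2.41 (SD). A second Ddc probe set, 1430591_at, ran from 6.50 to 12.7 and was above background on no array, so the gene's reading rests on 1 of its 2 probe sets. Th read 23.1 at the lowest, 56.9 at the median and 93.8 at the highest, at percentile 55.4 ± 3.35, which was above background but near the middle of the array. Dbh read 24.6, 48.6 and 82.1 by its brightest probe set 1459848_x_at, at percentile 53.3 ± 2.02. The suffix _x_at marks probes that can also bind other transcripts, and the other 2 Dbh probe sets had medians of 12.1 and 12.6 and were above background on no array. Tph2 was lowest of all, at 5.97, 8.85 and 10.8 and percentile 7.28 ± 2.10, below background on every array.

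The carriers that define releasing cells lay at or near background. Slc18a2, the vesicle loader, read 8.13 at the lowest, 12.9 at the median and 17.8 at the highest, above background on 0 of 31 arrays. The dopamine transporter Slc6a3 read 7.45, 13.7 and 20.3 and was also above background on none. For the serotonin transporter Slc6a4 the values were 7.22, 14.8 and 19.5, above background on 2 arrays by under 1 unit. The noradrenaline transporter Slc6a2 was the exception, with 15.6, 35.4 and 49.7 by probe set 1447311_at, above background on 30 arrays and at 15.56 against 15.65 on the remaining array, labelled activated natural Treg 1. Its other 3 probe sets had medians of 8.79, 12.4 and 12.6 and were above background on no array.

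The choice of background decides part of this. Against 27 probe sets for Bacillus subtilis genes, Slc6a2 was above background on all 31 arrays, Slc6a3 on 25, Slc6a4 on 23, Slc18a2 on 21 and Tph2 on 0. Against the 99th percentile of the receptor probe sets Slc6a2 passed on 10 arrays and Slc6a4 on 0. With each gene at the average of its probe sets, Dbh passed on 28 arrays and Slc6a2 on 0. Th, Ddc, Maoa and Maob passed on all 31 arrays under each of these settings.

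Both breakdown enzymes read high. Maoa had a lowest value of 311, a median of 679 and a highest of 1513 by probe set 1428667_at, at percentile 90.1 ± 1.75. Its second probe set, 1442676_at, read 145, 242 and 400, at percentile 77.3 ± 1.67, and was also above background on all arrays. The pair of Maoa probe sets did not vary together across the arrays (Pearson r = 0.03 over 31 arrays on the normalised log2 scale, given as a description). Maob read 203, 353 and 542, at percentile 82.4 ± 1.25, the narrowest spread of the 17 probe sets. The genes are neighbours on the X chromosome of the mouse.

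**Figure D1:**
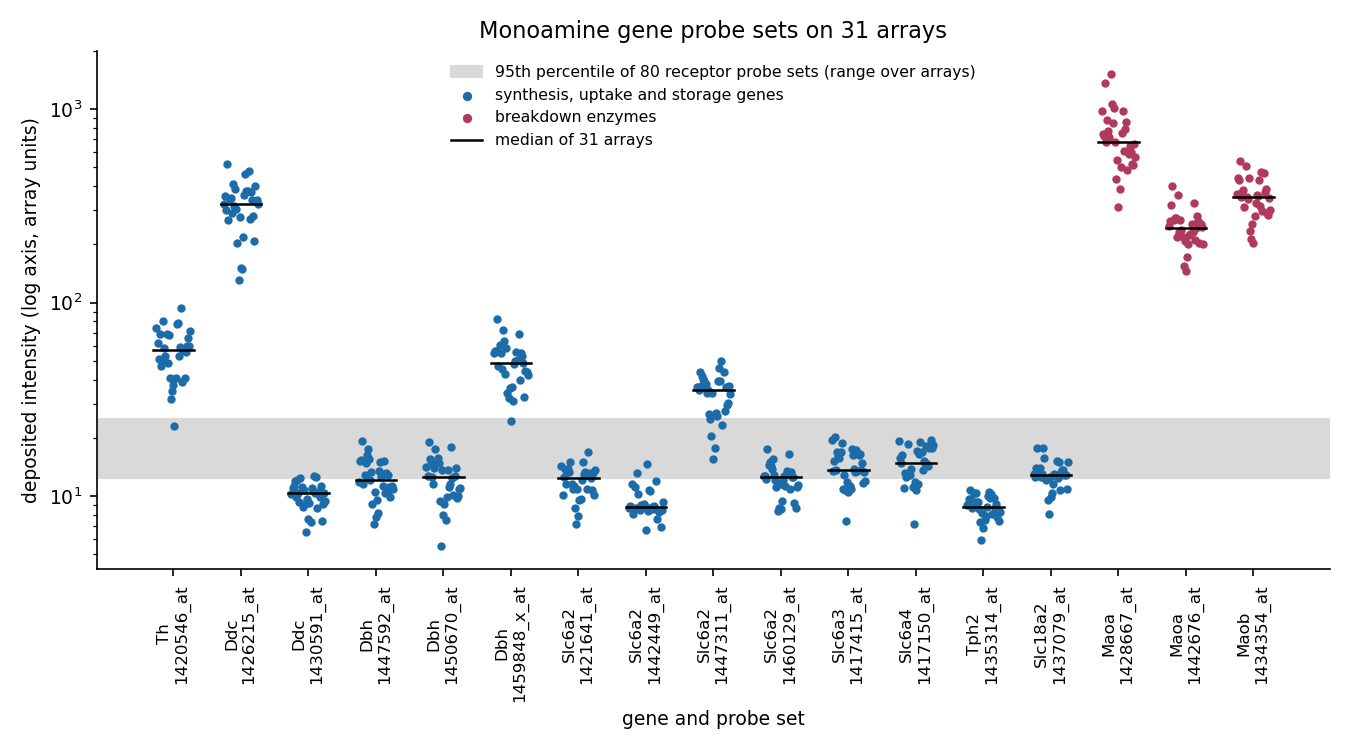
Deposited intensity (log axis, array units) of each of the 17 probe sets on the 31 arrays, 1 point per array, with the median as a bar and the range of the background level, 12.4 to 25.03, as a grey band. The 3 probe sets of Maoa and Maob, Ddc 1426215_at, Th 1420546_at and, more narrowly, Dbh 1459848_x_at and Slc6a2 1447311_at have medians over the band, and the other 10 lie in or under it.

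On every array the breakdown enzymes lay above the cell body genes as a class. With each gene at its brightest probe set, Maoa and Maob averaged percentile 86.3 and the 8 cell body genes 39.7. The difference was 46.5 ± 1.64 percentile points (SD, n = 31), from 42.2 to 50.0. Ddc was the exception among the cell body genes. Both enzymes exceeded the other 7 cell body genes on 31 of 31 arrays, and Maoa exceeded Ddc on 31, but Maob exceeded Ddc on only 23. Ddc exceeded the other 7 cell body genes on 31 of 31. By label group the mean difference ran from 43.0 ± 1.12 (n = 2) on arrays labelled induced Treg with IL-2 to 48.0 ± 1.82 (n = 4) on those labelled activated T. In bulk RNA, fewer cells of a type and less RNA per cell cannot be told apart.

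**Figure D2:**
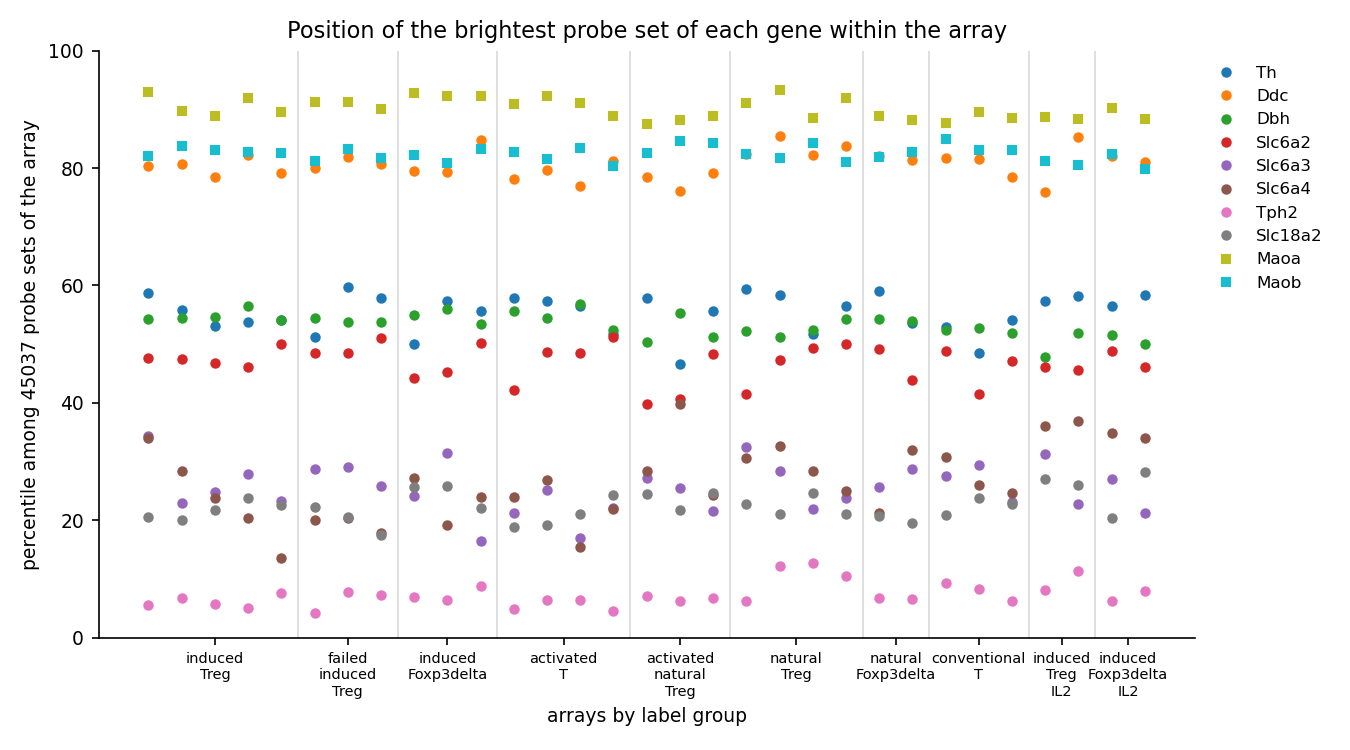
Percentile within the array (0 to 100, among 45037 probe sets) of the brightest probe set of each gene, 1 point per array, with arrays placed by label group and breakdown enzymes as squares. Maoa, Maob and Ddc lie between 76.0 and 93.3 on every array, Th, Dbh and Slc6a2 between 39.9 and 59.7, and Slc6a3, Slc6a4, Slc18a2 and Tph2 between 4.19 and 39.8.

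Differences between label groups were tested on quantile normalised values, as log2(intensity + 16), in 1 limma model over all 31 arrays with p-values adjusted over all 45037 probe sets by the Benjamini-Hochberg method. The added 16 makes log2 differences of dim probe sets smaller than they would otherwise be. A moderated F test over the 10 label groups called 0 of the 17 probe sets at an adjusted p under 0.05, where 7.31% of all probe sets were called. At an unadjusted p under 0.05 it passed 3 of the 17, and 23.7% of all. Closest were Maoa 1428667_at (adjusted p = 0.0605), Dbh 1459848_x_at (0.0620) and Slc6a4 (0.0996). For Ddc, Maoa and Maob the highest group mean was 1.498, 1.59 and 1.25 times the lowest, and for Th 1.43 times. Ranked by group mean, all 9 pairs of neighbouring groups overlapped in Th, Maoa and Maob, and 8 of 9 in Ddc, where arrays labelled natural Treg and natural Foxp3-delta did not overlap.

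**Figure D3:**
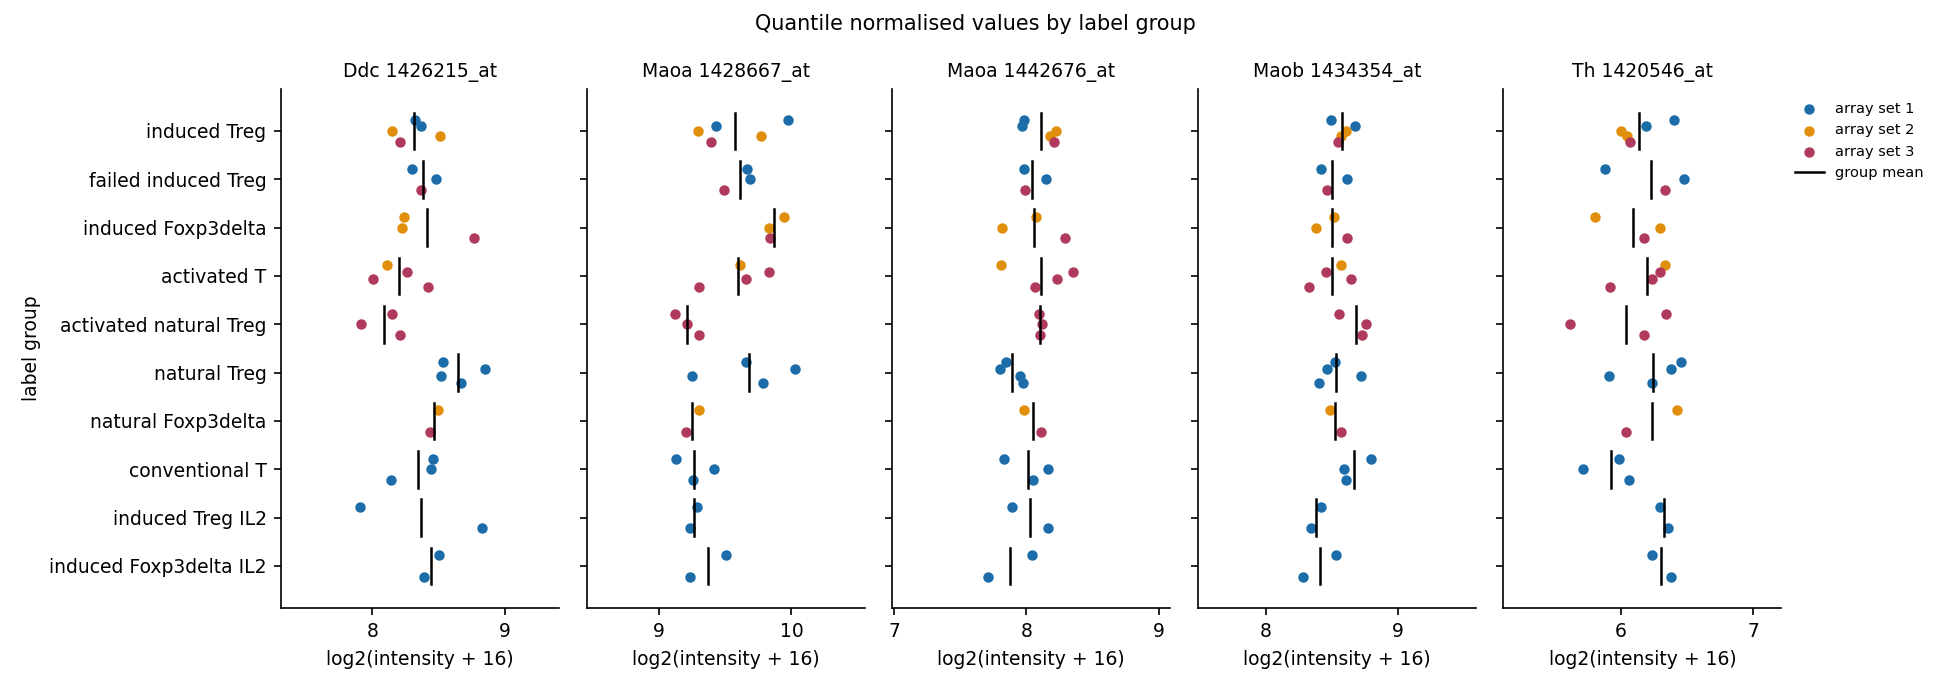
Quantile normalised log2(intensity + 16) of 5 member probe sets by label group, 1 point per array coloured by array set, with group means as black bars. The arrays labelled activated natural Treg all belong to array set 3 and those labelled natural Treg to set 1, and in Ddc 1426215_at these groups do not overlap.

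The comparison of arrays labelled activated natural Treg with natural Treg, which by the labels differ in both antibodies and TGF-beta together, gave the only call. It was Ddc 1426215_at. Normalised intensities were 267, 225 and 281 on the arrays labelled activated natural Treg (mean 258 ± 28.9, SD, n = 3). They were 355, 447, 351 and 392 on those labelled natural Treg (386 ± 44.3, n = 4), so all 3 arrays of the first group lay below all 4 of the second. The log2 difference was -0.55 (SE 0.16, 95% interval -0.88 to -0.23, adjusted p = 0.0293). Of the 17 probe sets 1 was called, against 9.71% of all probe sets in either direction and 4.73% lower. Groups did not overlap in 3 of the 17 against 23.6% of all, and 3 of 17 passed an unadjusted p under 0.05 against 25.4%. The members' median difference was -0.05, against 0.00 over all probe sets.

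The Ddc call was lost with array set in the fit, while the difference kept its size and its SE grew. Every array labelled activated natural Treg was in set 3, with deposited medians from 24.2 to 29.3, and every array labelled natural Treg in set 1, with medians from 39.0 to 47.7, so between these groups the label and the array set cannot be told apart. With array set as a block, estimated through the other groups, the Ddc difference was -0.56 (SE 0.23, against 0.16 without the block) with a limma adjusted p of 0.340. The call was also lost without activated natural Treg 1 (adjusted p = 0.0638), activated natural Treg 2 (0.116), natural Treg 2 (0.0853) or natural Treg 4 (0.0595). Summed normalised intensities of the marker lists in the same comparison ran from 33440 to 37823 against 35193 to 37806 for the 5 neuron markers. For the 4 endothelial markers they ran from 1013 to 1301 against 1193 to 1350, for the 4 oligodendrocyte markers from 49290 to 52720 against 51244 to 52919, and for the 8 T cell markers from 136 to 173 against 123 to 135. Of these 4 lists, the T cell list was the one whose sums did not overlap, and its nearest sums were 135.905 and 135.15. The astrocyte list overlapped. Of the lists given with the pathway genes below, 3 did not overlap: mast cell and platelet, cofactor and further synthesis (10154 to 10319 against 8857 to 9469) and other breakdown (4373 to 4656 against 3879 to 4294). A sum follows its brightest gene, which was Qdpr (mean 8321 deposited units over all arrays) in the synthesis list and Aldh1a1 (2993) in the breakdown list. Groups did not overlap in 23.6% of all probe sets, a share of single probe sets and not of sums. In the T cell list Cd3e was higher by 0.59 and Cd3g by 0.16 and Il2ra was lower (-0.19), all called, where 9.71% of all probe sets were. Cd3g was above background on 0 arrays and Il2ra on 3, so these readings lay near the floor. As deposited the differences of Cd3e, Cd3g and Il2ra were 0.13, -0.02 and -0.40, and with arrays set to a common median those of Cd3g and Il2ra were 0.32 and -0.06. Their part in the Ddc difference was not tested.

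Maoa gave no single answer in the same comparison. Probe set 1428667_at read 541, 577 and 615 on the arrays labelled activated natural Treg (578 ± 37.1, n = 3) and 790, 1028, 591 and 868 on those labelled natural Treg (819 ± 181, n = 4). The groups overlapped on the array natural Treg 3, and the log2 difference was -0.47 (SE 0.15, interval -0.78 to -0.15, adjusted p = 0.0532), just short of a call. Without natural Treg 3 it was -0.61 with an adjusted p of 0.0169. With array set as a block it was -0.24 (adjusted p = 0.736). Probe set 1442676_at differed in the other direction, at 257, 262 and 258 against 214, 207, 231 and 235, a log2 difference of 0.21 (SE 0.12, adjusted p = 0.273) with no overlap, and of 0.01 with array set as a block. For Maob the values were 359, 416 and 408 against 352, 337, 404 and 322, a difference of 0.15 (SE 0.08, interval -0.02 to 0.33, adjusted p = 0.273), which was -0.43 on values as deposited, where the median of all probe sets shifted by -0.33.

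For natural Treg against conventional T labels, 0 of 17 member probe sets were called, as were 0% of all. 1 of 17 passed an unadjusted p under 0.05 (2.41% of all) and 1 did not overlap (6.15% of all). The first was Maoa 1428667_at, at 542, 665 and 596 on conventional T arrays, a log2 difference of 0.41 (SE 0.15, interval 0.10 to 0.73, adjusted p = 1.00). The second Maoa probe set, 1442676_at, went the other way, at 222 ± 13.4 on natural Treg arrays (n = 4) and 244 ± 30.3 on conventional T arrays (n = 3). The groups overlapped in both Maoa probe sets. Ddc 1426215_at read 335, 331 and 267 on the conventional T arrays, all below the 4 natural Treg arrays, with a difference of 0.30 (SE 0.16, interval -0.03 to 0.63). Th differed by 0.32 (SE 0.17, interval -0.03 to 0.68). All 7 arrays of this comparison were in array set 1.

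Activation and induction were compared next. Activated T against conventional T called 0 of 17 (3.11% of all), with 3 of 17 past an unadjusted p under 0.05 (18.7%) and 1 of 17 not overlapping (17.3%). The 3 were Dbh 1459848_x_at at 0.17 (SE 0.07), Maoa 1428667_at at 0.33 (SE 0.15) and Slc6a2 1421641_at at -0.13 (SE 0.05), the last below background. Every conventional T array was in array set 1 and every activated T array in set 2 or 3, so label and array set cannot be told apart here either. With array set as a block, estimated through the other groups, Maoa was at 0.55 (SE 0.21, adjusted p = 0.406), Slc6a2 1421641_at at -0.08 (SE 0.07) and Dbh at 0.16 (SE 0.10). The second Maoa probe set, 1442676_at, was at 0.10 (SE 0.12), and at -0.05 (SE 0.15) with the block. Induced Treg against activated T, which differ in TGF-beta and in the sort for Foxp3+EGFP+ cells, called 0 of 17 (0.0422% of all) with 0 of 17 past an unadjusted p under 0.05 (9.84%) and 0 not overlapping (1.96%). Maoa 1428667_at differed there by -0.03 (interval -0.30 to 0.25) and Ddc 1426215_at by 0.11 (interval -0.18 to 0.40). Induced against failed induced Treg called 0 of 17 (0% of all), with 0 of 17 past an unadjusted p under 0.05 (4.65%) and 1 not overlapping (2.91%). Maob differed by 0.08 (interval -0.09 to 0.24).

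By label, the Foxp3 mutant comparisons set Treg cells against cells carrying Foxp3deltaEGFP. Foxp3 itself was above background on no array, so the counts cannot show what Foxp3 protein adds. Induced Treg against induced Foxp3-delta called 0 of 17 (0% of all), with 0 of 17 past an unadjusted p under 0.05 (3.18%) and 0 not overlapping (2.40%). Maoa 1428667_at read 987, 673, 611, 858 and 657 on the arrays labelled induced Treg and 968, 892 and 897 on those labelled induced Foxp3-delta, a difference of -0.30 (SE 0.15, interval -0.60 to 0.01). The second Maoa probe set, 1442676_at, differed by 0.05 (SE 0.11, interval -0.18 to 0.28). Natural Treg against natural Foxp3-delta called 0 of 17 (0.0422% of all). There 1 of 17 passed an unadjusted p under 0.05 (12.5%) and 4 of 17 did not overlap (25.7%). The 1 was again Maoa 1428667_at, at 614 and 574 on the natural Foxp3-delta arrays, with a difference of 0.43 (SE 0.17, interval 0.07 to 0.79, adjusted p = 0.299). The natural Treg arrays were all in array set 1 and the natural Foxp3-delta arrays in sets 2 and 3, so label and array set cannot be told apart, and with array set as a block the difference was 0.23 (SE 0.22, adjusted p = 0.971). For Maoa 1428667_at the difference between these 2 effects, induced minus natural, was -0.72 (SE 0.23, interval -1.19 to -0.26), in a fit without array set. Its limma adjusted p was 0.997. For 1442676_at it was 0.21 (SE 0.17, interval -0.16 to 0.57). On natural Treg arrays 1442676_at averaged 222 ± 13.4 (n = 4), against 249 ± 16.5 (n = 2) on natural Foxp3-delta arrays, the other direction. By the labels the induced Foxp3-delta cells came from mutant males and the natural ones from heterozygous females. Sex and antibody treatment therefore differ between those 2 groups, and their parts cannot be told apart.

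The comparison of labels for a further week in IL-2 gave no call. Induced Treg with IL-2 against induced Treg called 0 of 17 (1.21% of all), and 6 of 17 passed an unadjusted p under 0.05 (13.3%) and 8 of 17 did not overlap (20.8%). Dbh 1459848_x_at read 35.1 and 44.5 on the IL-2 arrays and 51.3, 52.3, 52.5, 59.2 and 50.8 on the others. Both IL-2 arrays were lower, with a log2 difference of -0.31 (SE 0.08, interval -0.48 to -0.14, adjusted p = 0.0592). Without the array induced Treg with IL-2 1 it was -0.19 (adjusted p = 0.695). Within array set 1, which holds both IL-2 arrays and 2 of the induced Treg arrays, it was -0.29 (adjusted p = 0.0867). Slc6a4 read 19.9 and 20.6 against 18.4, 15.2, 13.3, 12.2 and 10.3, a difference of 0.28 (SE 0.09, adjusted p = 0.131) near the background level, and 0.15 within array set 1. Maob read 325 and 307 against 344, 393, 373, 363 and 358, a difference of -0.20 (SE 0.09, interval -0.39 to -0.01, adjusted p = 0.342). The other 3 past an unadjusted p under 0.05, Slc18a2 and 2 Slc6a2 probe sets, were below background. The IL-2 difference did not differ by a called amount between induced Treg and induced Foxp3-delta in any member probe set (smallest adjusted p = 1.00, 0 of 17 past an unadjusted p under 0.05).

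**Figure D4:**
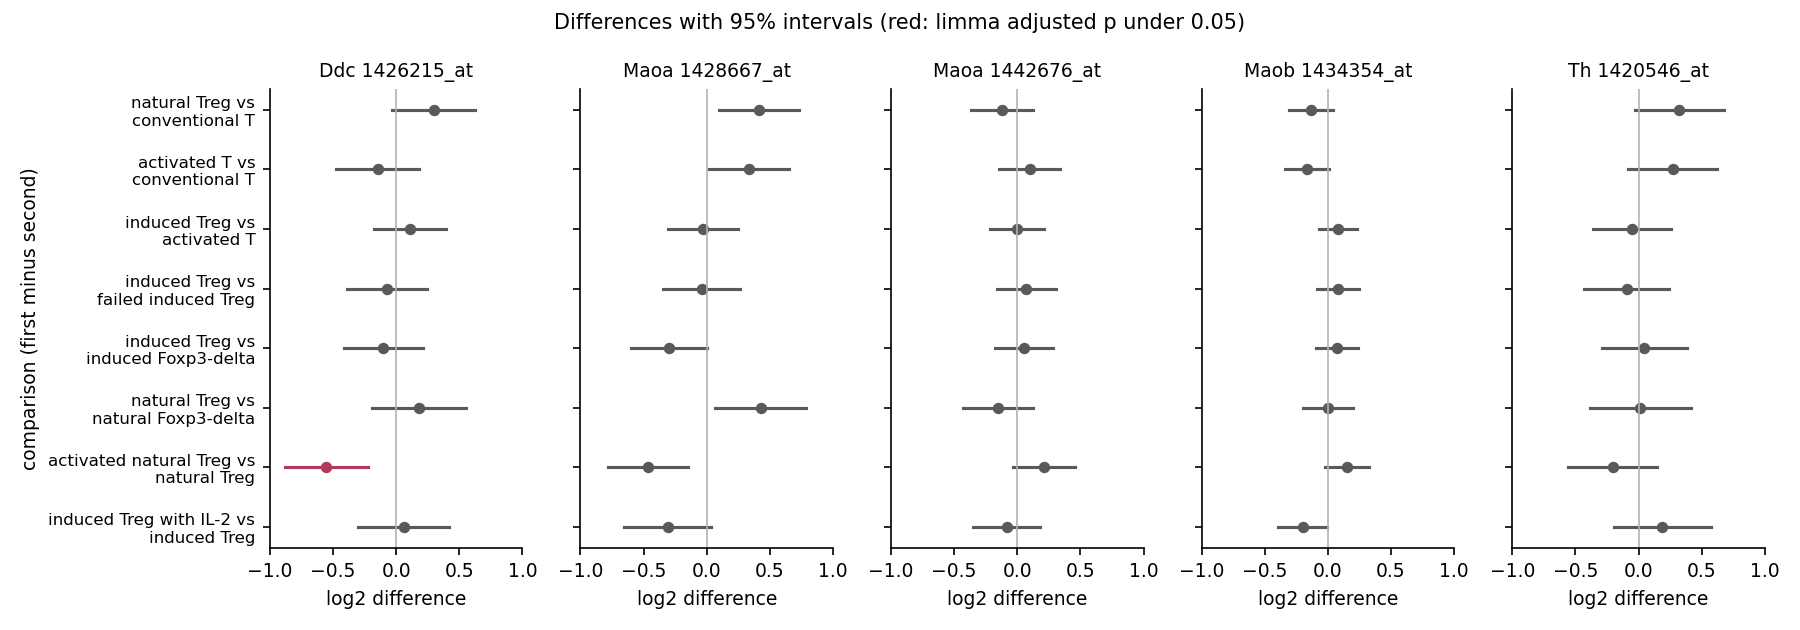
Log2 difference (first group minus second, quantile normalised values) with its 95% interval for 5 member probe sets in 8 comparisons of label groups, with calls in red. The only red point is Ddc 1426215_at in activated natural Treg against natural Treg, at -0.55, and the 2 Maoa probe sets lie on opposite sides of 0 in that comparison.

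Other genes of the pathway were set against the same background, each by its brightest probe set, as were the marker lists above. That level lay under the array's median on every array, so most probe sets pass it. The share of all probe sets above it on all arrays was not counted, so the counts describe the listed genes only. Of 9 listed genes of cofactor supply and further synthesis 8 were measured, and 5 were above background on all arrays: Qdpr (8321 ± 1995 intensity units, SD, n = 31), which recycles tetrahydrobiopterin, Spr (543 ± 146) and Pts (331 ± 61.2), which make it, Pcbd1 (226 ± 43.9) and Pnmt (66.7 ± 14.6), which forms adrenaline. Gch1, which starts that cofactor pathway, was above background on 29 arrays and histidine decarboxylase (Hdc) on 30, whereas Tph1, the tryptophan hydroxylase of peripheral tissues, read 8.80 ± 0.940 and was above background on none. The list's median percentile was 67.2. The breakdown genes Aldh1a1 (2993 ± 782), Aldh2 (715 ± 205) and Hnmt (210 ± 50.8), 3 measured of 4 listed, were above background on all arrays, with a median percentile of 90.1. Of 3 carriers measured of 5 listed, the low-affinity transporter Slc29a4 (390 ± 101) was above background on all arrays, the second vesicular transporter Slc18a1 on 5 and Slc22a2 on 0. The readings of Qdpr, of Slc29a4 and of Htr1d, given below, came from _x_at probe sets, whose probes can also bind other transcripts.

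Transcription factors that give monoamine neurons their identity were mostly dim. Of 12 listed 10 were measured, at a median percentile of 27.5. Above background on all arrays were Lmx1b (62.8 ± 16.2), Nr4a2 (59.5 ± 14.0) and Gata2 (57.5 ± 12.3), while 5 of the 10, Lmx1a, En1, Foxa2, Gata3 and Phox2a, were above it on none. Receptors, which mark the cells that respond to monoamines, were measured for 19 of 28 listed genes, at a median percentile of 42.4. Above background on all arrays were 9: the serotonin receptors Htr2c (1179 ± 305), Htr1b (177 ± 35.2), Htr7 (130 ± 31.9), Htr1a (99.6 ± 26.6), Htr3a (61.0 ± 14.9) and Htr1d (31.03 ± 7.19), the dopamine receptor Drd2 (118 ± 29.7), and the adrenergic receptors Adra2c (56.3 ± 11.3) and Adra1b (44.9 ± 12.4).

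In 7 of the 8 comparisons 0 of these 43 pathway genes were called by limma, where 0% to 3.11% of all probe sets were. Between 2 and 6 of the 43 passed an unadjusted p under 0.05, against 2.41% to 18.7% of all probe sets. Activated natural Treg against natural Treg called 4, all higher: Pts by 0.47 (SE 0.12, adjusted p = 0.0143), Qdpr by 0.13 (SE 0.03, 0.0155), Hdc by 0.41 (SE 0.11, 0.0199) and Adra2c by 0.64 (SE 0.18, 0.0274), against 9.71% of all probe sets called. On values as deposited, where the median of all probe sets shifted by -0.33, Pts (-0.13) and Hdc (-0.04) changed sign and Qdpr (0.38) and Adra2c (0.02) did not. With arrays set to a common median Qdpr was higher by 1.08. The medians of the synthesis list and the receptor list in that comparison were 0.17 and 0.00. These calls rest on the arrays that gave the Ddc call, so label and array set cannot be told apart for them either. Kit, 1 of 6 mast cell and platelet markers, was also called higher, by 0.46 (-0.21 as deposited), and that list's summed intensity ran from 296 to 358 against 241 to 278. Its part in the Hdc difference was not tested.

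**Figure D5:**
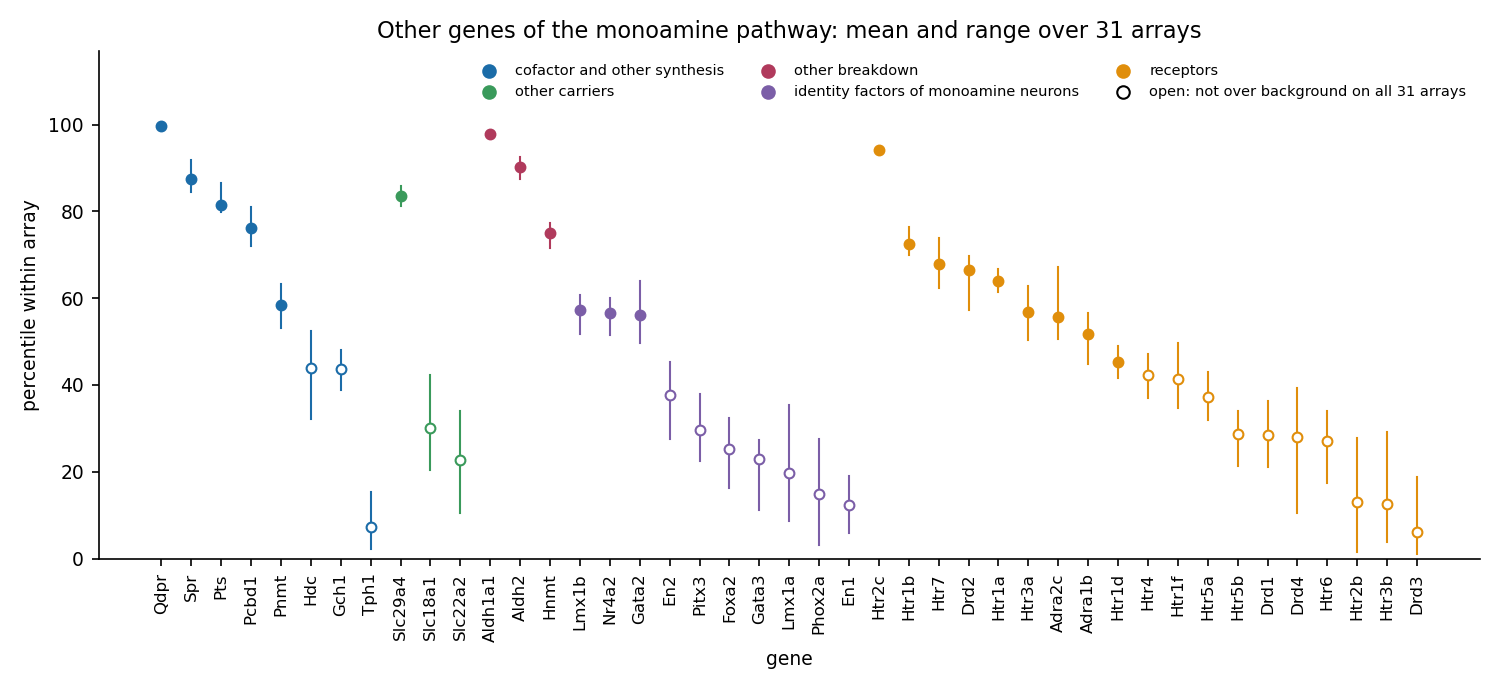
Percentile within the array of 43 other genes of the monoamine pathway, with the mean over 31 arrays as a circle and the range as a line, coloured by list. Filled circles are above background on all arrays, which holds for 21 genes, from Htr1d at 45.3 to Qdpr at 99.7.

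The genes whose normalised values ran most closely with a member over the 31 arrays were named by Pearson's r, as a description across arrays that share array set and processing. For Ddc 1426215_at they were Rbfox1 (r = 0.68), a neuronal splicing regulator, Ppm1a (0.68) and Xrcc5 (0.62). For Maoa 1428667_at they were Cttnbp2 (0.67), Ccp110 (0.67) and Ptprs (0.66), and for Maob Dnm2 (0.65), Ptbp2 (0.64) and Naaa (0.62). Th gave Nmnat1 (0.60), Lpo (0.59) and P3h2 (0.57). Dbh 1459848_x_at gave the highest values, Fam219b (0.81), Gtpbp2 (0.81) and Mrpl39 (0.78). Its r with the other Dbh probe sets, which were not picked by a search, was 0.24 and 0.19. Among the members themselves, Th and Ddc, which act in sequence, had r = 0.25, and Maoa and Maob had r = -0.23.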

How the data were processed

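Total RNA was extracted with Trizol and RNeasy columns and hybridised as biotin-labelled cRNA to Affymetrix mouse arrays, per the labels' protocols. The deposited table holds 1 linear intensity per probe set and array (45101 probe sets, 31 arrays). For the deposited intensity values, the authors' summary method, background correction and scaling are not given in the sources used here, and scale and centring stay unknown. Symbols came from the platform annotation: 34958 probe sets had 1, 932 had several and the rest none listed, and only those with 1 were named. The 64 control probe sets were left out of ranks and tests.

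Arrays were quantile normalised and log2(intensity + 16) was fitted with limma 3.58.1 (R 4.3.3), 1 mean per label group, with Benjamini-Hochberg adjustment over 45037 probe sets and no filter on dim ones. 7 of the 17 member probe sets lay above the table median of 39.8 on at least 2 arrays. Tested on simulated data for activated natural Treg against natural Treg over 45037 probe sets, the fit recovered 57 of 100 changes of 0.5 log2 and 98 of 100 of 1 log2.

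Array sets came from Ward clustering on the log2 cre to bioB control ratio, the array median and the array's 99th percentile. The named genes are all members, the genes of each pathway list called or above background on all arrays (and up to 3 with the highest mean), and the 3 genes most correlated with each member above background. Members, lists and tests were chosen with earlier results of these data known. Alternatives covered scaling, the added constant, dim probe sets, 1 probe set a gene, replicate and array set blocks, the background and each array left out. The fits within array sets were added after seeing the data. Listed genes without a probe set here were not analysed.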

Additional observations from a re-analysis of the deposited data

Results flagged for a closer look

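Within label groups of 4 or 5 arrays, 1 array stood apart from the rest of its group in 1 of 51 combinations of member probe set and group tested. Dbh 1459848_x_at read 6.23 on the log2(intensity + 16) scale on the array labelled induced Treg 4, and the other 4 arrays of that label ran from 6.06 to 6.10. Chance flags about 1 in 20 such groups, which is 2.55 of 51.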

How the results depend on the processing

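The number of member probe sets called moved mainly with scaling. On values as deposited it was 8 by the F test, 1 in activated T against conventional T, 13 in induced Treg against activated T and 10 in activated natural Treg against natural Treg, against 28.7%, 18.6%, 54.7% and 46.0% of all probe sets, where the quantile normalised fit gave 0, 0, 0 and 1. Those deposited values carried median shifts over all probe sets of -0.24, 0.32 and -0.33 in the 3 comparisons, and the share of all calls that were higher was 0.131%, 99.99% and 0.352%, against 48.0%, 68.4% and 51.2% after quantile normalisation. For induced Treg with IL-2 the median shift was -0.18, while the share of calls that were higher was 100%, against 54.2%. The number of calls behind that 100% is not given here, so it does not describe the probe sets as a whole. With arrays set to a common median the F test called 2 members, activated T against conventional T 1 and activated natural Treg against natural Treg 3, against 20.6%, 23.0% and 27.5% of all, with shifts of 0.13 and 0.12 and shares higher of 92.1% and 85.7%. That scaling gave shares of 52.2% in induced Treg against activated T, 14.7% in natural Treg against natural Foxp3-delta (52.6% after quantile normalisation) and 18.1% in the IL-2 comparison. Without dim probe sets the F test called 1 and activated natural Treg against natural Treg 2, with 1 probe set a gene the latter called 2, and with array set as a block 0. Leaving out each array in turn gave 0 to 2 calls by the F test, 0 to 2 in activated natural Treg against natural Treg, 0 to 1 in the IL-2 comparison (Dbh 1459848_x_at, from -0.44 to -0.19, called without activated T 3, activated T 4, activated natural Treg 1 or activated natural Treg 2), 0 in the other 6, and 5 to 6 genes above background. The Ddc difference ran from -0.61 to -0.47 over those fits, and Maoa 1428667_at was called without dim probe sets (adjusted p = 0.0376) and with 1 probe set a gene (0.0462). The percentile difference of breakdown enzymes over cell body genes was 53.2 with the mean of all probe sets and 49.4 among probe sets with 1 symbol. Replicate numbers did not pair the arrays: the correlations of 114 same-numbered pairs had a median of 0.00. With the replicate block the calls were 0 by the F test and 1 in activated natural Treg against natural Treg (Ddc, -0.51, adjusted p = 0.0493), and no call changed. Within each array set that holds both groups, 0 members were called. The causes of these changes were not tested. Signal over background limits what can be said of Tph2, Slc18a2, Slc6a3 and Slc6a4.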
